A study of Homo sapiens with 6 samples.

Results

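The genes of apoptosis described here are 33 named genes of the BCL2 family, the caspases, the apoptosome, the inhibitor of apoptosis proteins (IAPs) and the death receptor pathway, taken by their symbols from a table of 58735 genes. They occupy 34 rows of that table, because the symbol DIABLO stands on 2 of them, and 33 rows had enough reads to be tested among 15054 tested genes. By their textbook role 9 genes were taken as pro-survival and 24 as pro-death. The question was whether the balance between both sides differed between C4-2B, a cell line of castration resistant prostate cancer (CRPC), and RC4-2B, a subclone of C4-2B selected with the taxane cabazitaxel (CBZ) at concentrations rising from 0.1 to 20 nM over 4 months. Expression was measured by RNAseq in 3 libraries of each cell line, labelled as biological replicates and grown for 72 h with no drug named for that time. RC4-2B is a single derived subclone, so selection by CBZ and the properties of the cells that founded it cannot be told apart. The sample labels give 10% fetal bovine serum for both cell lines, while the methods of the study also name 10% charcoal-stripped serum. No sample was treated to induce apoptosis, so all values are levels of RNA in growing cells.

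Apoptosis by the mitochondrial route is decided among the BCL2 proteins. Pro-survival members such as BCL2, BCL-XL (BCL2L1) and MCL1 hold the effectors BAX and BAK1 in check, and the BH3-only proteins release them, either by binding to the pro-survival members or by activating the effectors directly. Cytochrome c then leaves the mitochondria, assembles the apoptosome with APAF1 and activates CASP9 and the executioner caspases, a step that the IAPs restrain. Death receptors of the cell surface start a separate route through FADD and CASP8. Taxanes hold cells in mitosis, where MCL1 protein is degraded and where NOXA (PMAIP1), which binds mainly MCL1, is known to favour death.

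Total gene counts were 15707134 to 18052517 per library, which puts 3 counts, taken as the floor of detection, at 0.170 to 0.188 CPM (read counts scaled to library size by TMM), a limit that covers counting error alone. ABCB1, the drug efflux pump that marks RC4-2B, had at most 1 count in any C4-2B library and at least 10742 in every RC4-2B library. All 10 prostate epithelial marker genes were expressed in both cell lines, with summed levels of 3515 to 4121 CPM, and all 7 leukocyte markers were at or under the floor in every library. RC4-2B replicate 2 stood apart from RC4-2B replicates 1 and 3. Its deviation from the C4-2B mean followed the GC content of the transcripts (Spearman -0.71 across the 6341 more highly expressed genes, which are not independent). In C4-2B replicates 1, 2 and 3 the correlation was 0.39, -0.24 and -0.30. Each of these libraries is part of the mean it is compared with, so these values are not alike with those of RC4-2B. In RC4-2B replicates 1 and 3 the correlation was -0.15 and -0.40. A GC trend thus also remains when RC4-2B replicate 2 is left out. For many members, values are also given without this library or after a correction for GC content. These were chiefly cases where that turned the direction, changed a call or moved a described log2 fold change strongly.

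Of the 33 tested rows, BMF rose and PMAIP1 fell in RC4-2B by the edgeR quasi-likelihood test, at a Benjamini-Hochberg adjusted p-value under 0.05 over all genes. Both are BH3-only genes on the pro-death side. None of the 8 tested pro-survival genes passed the threshold. Over all tested genes 1.98% were called, 1.08% as higher and 0.903% as lower, so that the count of 2 members lies 1 or 2 genes away from the background. At an unadjusted p-value under 0.05 there were 7 members, against 21.4% of all tested genes. The median log2FC (log2 fold change, RC4-2B over C4-2B) was -0.19 for the pro-survival genes and -0.064 for the 25 pro-death rows. Without RC4-2B replicate 2 these medians were -0.14 and 0.019, and after the GC correction they were -0.24 and 0.0023. The pro-death median thus turned, so no direction is given for it. Over all tested genes the median was 0.0063 with all 6 libraries, and the quartiles were -0.28 and 0.25. These quartiles describe single genes, and a median over several genes varies less, so they do not measure a shift of either side.

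Counted by levels alone, 10 member rows had all RC4-2B libraries below all C4-2B libraries, which is 30.3% of the tested rows against 17.1% of all tested genes. In the other direction there were 3 rows, 9.09% against 17%, and groups without overlap in either direction made up 34.1% of all tested genes. Without RC4-2B replicate 2 the same 10 rows were lower, with a background of 22%, and 6 rows were higher, with a background of 22.2%. Among the lower rows were 4 of the 8 pro-survival genes (50%) and 6 of the 25 pro-death rows (24%). Lower levels thus occurred on both sides, with the larger share among the pro-survival genes. The rows that were higher with all 6 libraries made up 12.5% of the pro-survival genes and 8% of the pro-death rows. With a log2FC of at least 0.5 in size as a further condition, 6 rows were lower (8.27% of all genes) and 2 were higher (7% of all genes, and 15.3% in either direction). These were BCL2, BAX, BAD, BBC3, PMAIP1 and 1 row of DIABLO on the lower side, and BMF and CASP2 on the higher side. With overlap still judged on all 6 libraries, the log2FC without RC4-2B replicate 2 left 2 lower and 1 higher. Over all genes 757 and 788 of 15378 met that condition. The log2FC after the GC correction left 3 lower and 1 higher, beside 839 and 804 of 14987 genes.

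**Figure D1:**
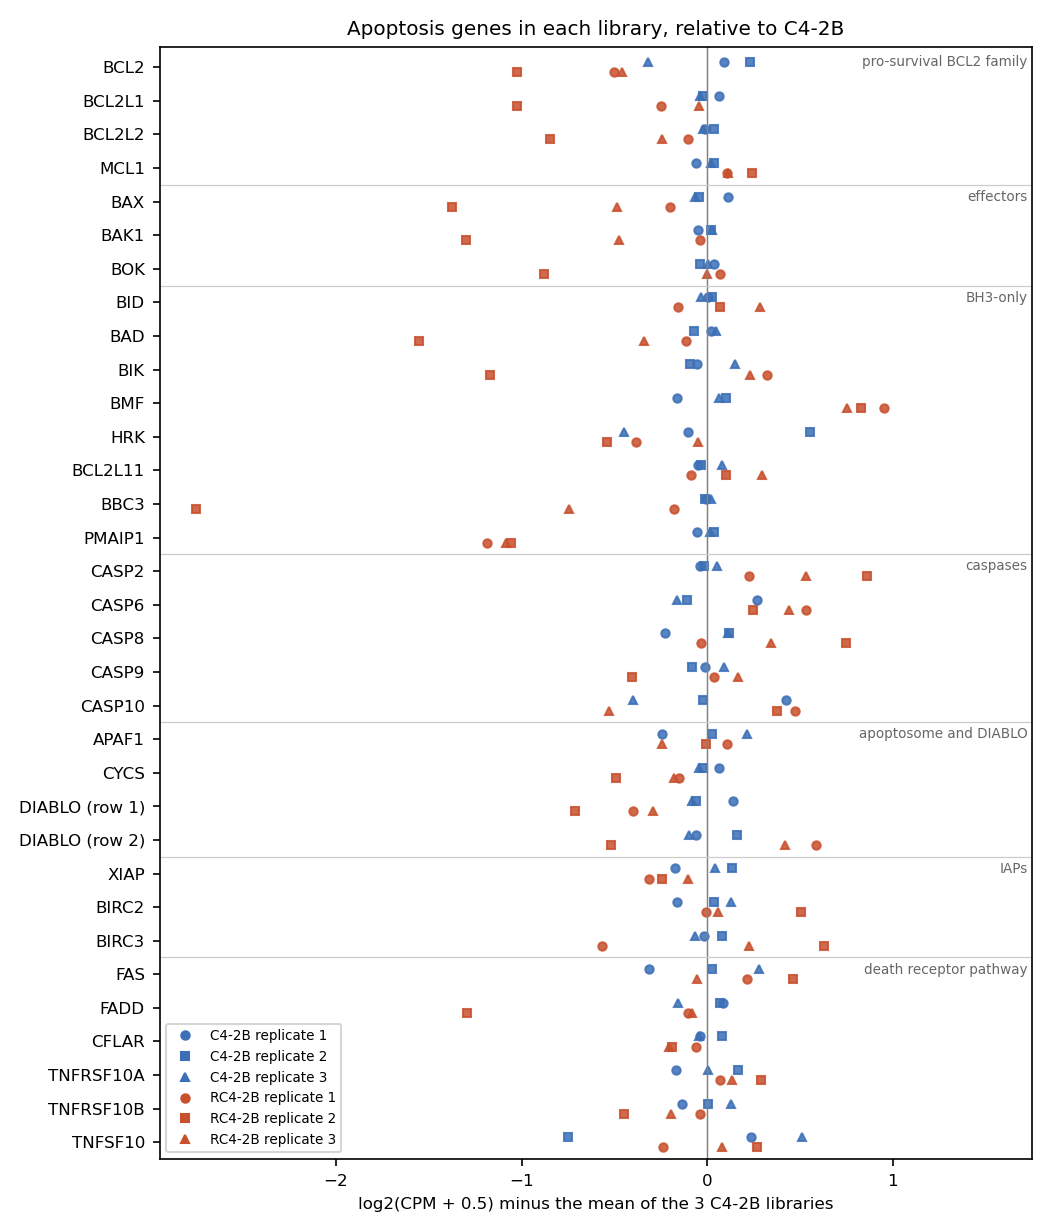
Level of each of the 33 tested rows in each library, as log2(CPM + 0.5) minus the mean of the 3 C4-2B libraries (blue, C4-2B; red, RC4-2B; circle, square and triangle, replicates 1, 2 and 3). The RC4-2B libraries lie together on the left for PMAIP1 and on the right for BMF, while RC4-2B replicate 2 lies far to the left of the other libraries for BBC3, BAD, BAX, BAK1, BIK and FADD. It also lies to their left for BOK and for the pro-survival genes BCL2L1 and BCL2L2.

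Among the BH3-only genes, PMAIP1 (ENSG00000141682) encodes NOXA and lies on the plus strand of chromosome 18 from 59899948 to 59904306 in GRCh38. The raw counts of PMAIP1 were 230, 259 and 254 in C4-2B against 96, 116 and 110 in RC4-2B, which is 13.7, 14.7 and 14.5 CPM against 6.003, 6.61 and 6.46 CPM. The groups did not overlap, and each RC4-2B library was far below the lowest C4-2B library. PMAIP1 fell from 14.3 ± 0.495 to 6.36 ± 0.318 CPM (mean ± SD, n = 3), which gives a log2FC of -1.17 with a standard error (SE) of 0.15 and an adjusted p of 0.00887 in edgeR, and it ranked 57 of all tested genes by p-value. RC4-2B replicate 2 was close to its partners here, and the log2FC was -1.19 without it (edgeR adjusted p = 0.000118) and -1.37 after the GC correction (edgeR adjusted p = 0.00061), where 7.65% of all genes were called. The direction held in each fit that left out a library, with log2FC values of -1.20 to -1.12, but the adjusted p rose to 0.0663, 0.0748 and 0.0711 when C4-2B replicate 1, 2 or 3 was left out and to 0.0522 for RC4-2B replicate 3. In those 4 fits between 0.284% and 0.503% of all genes were called. No other gene of the table overlaps PMAIP1.

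BMF (ENSG00000104081), a BH3-only protein that binds the pro-survival members and is known from cells that lose their anchorage, lies on the minus strand of chromosome 15 from 40087890 to 40108892. BMF had 114, 146 and 141 counts in C4-2B against 245, 246 and 226 in RC4-2B, or 6.80, 8.27 and 8.03 CPM against 15.3, 14.0 and 13.3 CPM. All RC4-2B libraries were above all C4-2B libraries, and RC4-2B replicate 2 lay between the other two. BMF rose from 7.70 ± 0.786 to 14.2 ± 1.03 CPM (mean ± SD, n = 3), a 1.84-fold increase with a log2FC of 0.88, an SE of 0.16 and an adjusted p of 0.0299 in edgeR. The log2FC of BMF was 0.89 without RC4-2B replicate 2 (edgeR adjusted p = 0.00153) and 0.99 after the GC correction (edgeR adjusted p = 0.00409). Leaving out a library gave 0.80 to 0.93, with an adjusted p of 0.193, 0.153 and 0.150 when C4-2B replicate 1, 2 or 3 was left out, and of 0.0497 and 0.0973 for RC4-2B replicates 1 and 3. The only gene that overlaps BMF in the table, the antisense BMF-AS1, had 0 counts in all libraries.

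Because PMAIP1 and BMF are the 2 members that passed the test, and in opposite directions, the 250 bases before the transcription start of each are shown 5′ to 3′ on the strand of the gene, from RefSeq on GRCh38.p14. The RefSeq start lies 48 bases from the deposited start of PMAIP1 and 13 bases from that of BMF, for which the nearest of 2 RefSeq starts was taken. The window of PMAIP1 is chr18:59899746-59899995 on the plus strand and that of BMF is chr15:40108880-40109129 on the minus strand. Capitals mark matches on either strand to the GC box (GGGCGG), the core of the cAMP response element (TGACGT) and the CCAAT box (CCAAT).
PMAIP1: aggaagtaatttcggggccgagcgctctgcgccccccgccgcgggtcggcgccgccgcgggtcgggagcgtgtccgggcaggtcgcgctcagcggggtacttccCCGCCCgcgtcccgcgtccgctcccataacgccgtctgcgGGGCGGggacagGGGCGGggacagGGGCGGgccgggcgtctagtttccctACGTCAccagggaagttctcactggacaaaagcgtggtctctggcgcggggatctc
BMF: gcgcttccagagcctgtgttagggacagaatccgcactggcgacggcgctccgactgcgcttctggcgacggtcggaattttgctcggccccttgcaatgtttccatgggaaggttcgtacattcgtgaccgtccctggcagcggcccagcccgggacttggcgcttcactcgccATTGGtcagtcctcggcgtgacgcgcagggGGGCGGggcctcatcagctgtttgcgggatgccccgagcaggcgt
The PMAIP1 window is 72.8% G or C and holds 4 GC boxes, which begin 146, 106, 94 and 82 bases before the start, and 1 TGACGT core 56 bases before it. The BMF window is 65.2% G or C and holds 1 GC box 45 bases and 1 CCAAT box 75 bases before the start. Over 35116 RefSeq windows of the same length, 42.6% held a GC box, 13.9% held at least 3, 7.10% held TGACGT and 32.0% held CCAAT. Neither window held the letters of a TATA box (TATAAA, in 10.7% of windows), an E-box (CACGTG, 6.34%) or a forkhead site (TGTTTAC, 2.98%). These matches describe letters in the windows, since no binding was measured.

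Neighbouring genes of PMAIP1 and BMF were also read, because chromosome 18 as a whole was lower in RC4-2B. The median log2FC of 230 tested genes on chromosome 18 was -0.18, and it was -0.28 without RC4-2B replicate 2 and -0.31 after the GC correction. PMAIP1 had 3 tested neighbours within 1 Mb, with log2FC values of -0.78 to 0.11 and a median of 0.080, and 1 of them, SEC11C, was called. BMF had 31, with a median of -0.15, of which 1 was called (THBS1, log2FC -1.58). The fall of PMAIP1 was larger than the chromosome median, and how much of it belongs to the chromosome was not tested.

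The other BH3-only genes did not pass the test. BBC3, which encodes PUMA, a target of p53 that binds all pro-survival members, was at 10.5, 10.5 and 10.7 CPM in C4-2B against 9.26, 1.14 and 6.11 CPM in RC4-2B. All RC4-2B libraries of BBC3 were lower, but RC4-2B replicate 2 was far below its partners. The log2FC of BBC3 was -0.95 with an SE of 0.54 (edgeR adjusted p = 0.319), and it was -0.46 without RC4-2B replicate 2. BBC3 has the highest GC content of all member transcripts, 69.7%.

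BAD, which binds BCL2 and BCL-XL when growth factor signals are absent, was at 24.7, 23.2 and 25.2 CPM in C4-2B against 22.4, 7.98 and 19.1 CPM in RC4-2B. Every RC4-2B library was lower, RC4-2B replicate 2 by the most, and the log2FC of -0.56 (SE 0.32, edgeR adjusted p = 0.320) was -0.12 after the GC correction. BAD overlaps GPR137 on the opposite strand, which had 4516 counts in all against 2090 for BAD, and whether reads were counted by strand is not given in the sources used here. For BCL2L11 (BIM), the BH3-only activator often linked to taxane response, the levels overlapped, at 33.6, 34.1 and 36.9 CPM against 32.8, 37.4 and 42.9 CPM (log2FC 0.11, SE 0.13). BID, BIK and HRK also overlapped between the cell lines, with log2FC values of 0.079, -0.073 and -0.63, and HRK was at most 1.42 CPM in any library. BIK was at 10.1, 9.80 and 11.7 CPM in C4-2B against 13.3, 4.39 and 12.4 CPM in RC4-2B. Only RC4-2B replicate 2 was below C4-2B, and the log2FC of BIK turned to 0.29 without it and to 0.021 after the GC correction, so no direction is given.

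**Figure D2:**
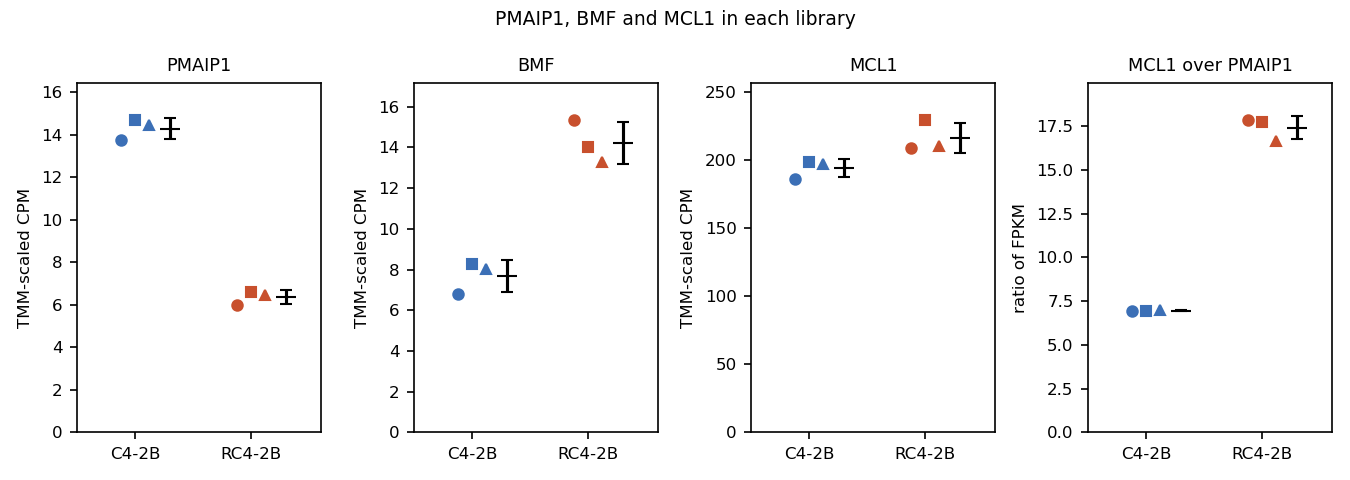
PMAIP1, BMF and MCL1 in TMM-scaled CPM, and the ratio of MCL1 to PMAIP1 in FPKM, in each library (circle, square and triangle, replicates 1, 2 and 3; blue, C4-2B; red, RC4-2B; black bars, mean and SD of 3 libraries). The RC4-2B libraries lie below C4-2B for PMAIP1, above it for BMF, and slightly above it for MCL1, and the MCL1 to PMAIP1 ratio lies between 16.6 and 17.8 in RC4-2B against 6.94 to 6.98 in C4-2B.

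On the pro-survival side MCL1 was the most abundant BCL2-family gene per length, with a deposited FPKM (reads scaled to gene length and library size) of 38.2, 40.6 and 40.7 in C4-2B against 42.8, 49.1 and 43.5 in RC4-2B. In CPM it was at 187, 199 and 197 against 209, 229 and 210. Each RC4-2B library was above each C4-2B library, but the log2FC of MCL1 was 0.16 with an SE of 0.097 (edgeR adjusted p = 0.359), and 0.039 after the GC correction.

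BCL2 itself was low, at 4.77, 5.32 and 3.47 CPM in C4-2B against 3.00, 1.94 and 3.11 CPM in RC4-2B. The RC4-2B libraries lay below all C4-2B libraries, with a log2FC of -0.75 (SE 0.27, edgeR adjusted p = 0.174), and -0.56 without RC4-2B replicate 2. BCL2 also lies on chromosome 18, and its 9 tested neighbours within 1 Mb had a median log2FC of -0.25, with none called (0 of 9 in edgeR, and 4 after the GC correction).

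BCL2L1, which encodes BCL-XL, was at 71.7, 67.5 and 66.7 CPM in C4-2B against 57.6, 33.5 and 66.6 CPM in RC4-2B. Its highest RC4-2B library was just under the lowest C4-2B library, and the log2FC of -0.39 (SE 0.22, edgeR adjusted p = 0.329) was -0.14 without RC4-2B replicate 2. BCL2L2, which encodes BCL-W, was at 48.4, 50.1 and 48.0 CPM in C4-2B against 45.5, 26.9 and 41.2 CPM in RC4-2B. All RC4-2B libraries were lower, and the log2FC of -0.37 (SE 0.19) was -0.17 without RC4-2B replicate 2. BCL2L2 overlaps PPP1R3E and HOMEZ on the opposite strand. BCL2A1 had 2 counts in RC4-2B replicate 2 and 0 counts in each other library, which is under the floor, so it was not tested.

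The 3 effectors, which form the pores of the outer mitochondrial membrane, were all expressed. BAX was at 55.4, 49.7 and 49.0 CPM in C4-2B against 44.5, 19.5 and 36.4 CPM in RC4-2B. The groups did not overlap, and the log2FC of -0.62 (SE 0.26, edgeR adjusted p = 0.223) was -0.34 without RC4-2B replicate 2, where its adjusted p was 0.048 in edgeR among 12.5% of all genes called. BAK1 was at 37.8, 39.8 and 40.0 CPM against 38.1, 15.6 and 28.0 CPM, and its groups overlapped.

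BOK, an effector thought to act apart from the BH3-only proteins, was the most abundant of them per length, at 22.2, 21.0 and 21.9 FPKM in C4-2B against 22.7, 12.3 and 21.9 FPKM in RC4-2B. RC4-2B replicates 1 and 3 lay at or above the level of C4-2B and RC4-2B replicate 2 far below it. Its log2FC of -0.21 (SE 0.23) turned to 0.035 without RC4-2B replicate 2 and to 0.28 after the GC correction, so no direction is given. Summed over the effectors, the FPKM was 56.6, 54.2 and 55.2 in C4-2B against 53.6, 25.9 and 46.1 in RC4-2B.

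Of the caspases, CASP2, an initiator caspase activated by the PIDDosome and known from cells with extra centrosomes after failed division, came nearest to the threshold. CASP2 was at 83.7, 85.2 and 89.3 CPM in C4-2B against 101, 157 and 124 CPM in RC4-2B. All RC4-2B libraries were higher, RC4-2B replicate 2 the most. The log2FC was 0.57 (SE 0.16, edgeR adjusted p = 0.112). It was 0.39 without RC4-2B replicate 2 (edgeR adjusted p = 0.0165, 12.5% of all genes called) and 0.43 after the GC correction (edgeR adjusted p = 0.0415, 7.65% called). CASP2 also passed with RC4-2B replicate 2 kept, at 0.71 without RC4-2B replicate 1 (edgeR adjusted p = 0.0418, 3.07% called). With no filter beyond 1 count it passed at 0.56 (edgeR adjusted p = 0.0220, 4.29% called). In 12 of 17 alternative fits CASP2 did not pass, and with a library left out its adjusted p reached 0.402 in edgeR.

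CASP6, an executioner caspase, was at 12.8, 9.68 and 9.34 CPM in C4-2B against 15.4, 12.5 and 14.5 CPM in RC4-2B. C4-2B replicate 1 lay inside the range of RC4-2B, and the log2FC was 0.41 (SE 0.18, edgeR adjusted p = 0.227). It was 0.49 without RC4-2B replicate 2 (edgeR adjusted p = 0.0487, 12.5% of all genes called). CASP8, the initiator of the death receptor route, was at 21.7, 27.7 and 27.6 CPM in C4-2B against 24.9, 43.2 and 32.5 CPM in RC4-2B. The groups overlapped, and the log2FC of 0.39 (SE 0.21) was 0.16 without RC4-2B replicate 2. CASP9, the initiator at the apoptosome, also overlapped, and its log2FC of -0.053 (SE 0.21) turned to 0.11 without RC4-2B replicate 2. CASP10 was at most 1.56 CPM in any library. The summed FPKM of the 5 caspases was 19.0, 18.3 and 18.9 in C4-2B against 22.5, 30.8 and 26.0 in RC4-2B, with RC4-2B replicate 2 the highest.

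At the apoptosome, CYCS, which encodes cytochrome c, held 98.2% of the summed FPKM of the 4 rows of its group in C4-2B against 98.0% in RC4-2B. CYCS was at 485, 458 and 451 CPM in C4-2B against 418, 330 and 410 CPM in RC4-2B. Every RC4-2B library was lower, with a log2FC of -0.27 (SE 0.12, edgeR adjusted p = 0.232), and -0.17 without RC4-2B replicate 2. APAF1, the scaffold of the apoptosome, overlapped between the cell lines (log2FC -0.056, SE 0.19).

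DIABLO, which encodes SMAC, an antagonist of the IAPs released from mitochondria, stands on 2 overlapping rows, so its reads could be split between them. The first row (ENSG00000184047) was at 2.86, 2.43 and 2.39 CPM in C4-2B against 1.81, 1.37 and 2.00 CPM in RC4-2B, a log2FC of -0.57 with an SE of 0.25 (edgeR adjusted p = 0.240). The second (ENSG00000284934) was at 0.342 to 1.31 CPM over all libraries with overlapping groups, and its log2FC was 0.36. Both overlap B3GNT4 on the opposite strand, and the level of DIABLO as a whole is uncertain.

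Among the IAPs, XIAP, which inhibits caspases such as CASP9, was at 85.4, 106 and 99.3 CPM in C4-2B against 77.6, 81.5 and 89.7 CPM in RC4-2B. The groups overlapped in 1 library of each, and the log2FC was -0.22 (SE 0.12, edgeR adjusted p = 0.312). It was -0.40 after the GC correction (edgeR adjusted p = 0.0673) and -0.21 without RC4-2B replicate 2 (edgeR adjusted p = 0.203), neither of which passed. With both together it was -0.29, where the adjusted p was 0.0395 in edgeR among 13.4% of all genes called.

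BIRC2, the ubiquitin ligase cIAP1, was at 30.3, 34.9 and 37.2 CPM in C4-2B against 33.8, 48.5 and 35.5 CPM in RC4-2B. Its log2FC of 0.20 was 0.021 without RC4-2B replicate 2 and -0.011 after the GC correction. BIRC3, which encodes cIAP2, was at most 2.79 CPM, and that value was in RC4-2B replicate 2. Its log2FC of 0.23 turned to -0.15 without this library and to -0.010 after the GC correction, so no direction is given for either ligase.

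In the death receptor pathway, TNFRSF10B, which encodes the TRAIL receptor DR5, was the most abundant gene per length, at 27.5, 30.1 and 33.2 FPKM in C4-2B against 29.3, 23.1 and 26.6 FPKM in RC4-2B. The groups overlapped, and the log2FC was -0.22 (SE 0.13, edgeR adjusted p = 0.345), and -0.12 without RC4-2B replicate 2. TNFRSF10A, the receptor DR4, was at 29.7 to 40.9 CPM over all libraries and had a log2FC of 0.16 (SE 0.13). The ligand TRAIL (TNFSF10) was at 0.113 to 0.968 CPM, and its lowest value, in C4-2B replicate 2, is under the floor. FAS was at most 4.85 CPM, with a log2FC of 0.23 and an SE of 0.26, and of 0.071 without RC4-2B replicate 2.

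FADD, the adaptor between receptor and caspase, had a log2FC of -0.41 (SE 0.30), and RC4-2B replicate 2, at 6.78 CPM, was far below the 15.5 to 18.4 CPM of the other libraries. Without that library the log2FC of FADD was -0.097. CFLAR, which encodes FLIP, the inhibitor of CASP8 at the receptor, was at 39.4, 42.9 and 39.3 CPM in C4-2B against 38.8, 35.5 and 35.1 CPM in RC4-2B. The groups of CFLAR just did not overlap, and the log2FC was -0.15 with an SE of 0.11 (edgeR adjusted p = 0.428).

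**Figure D3:**
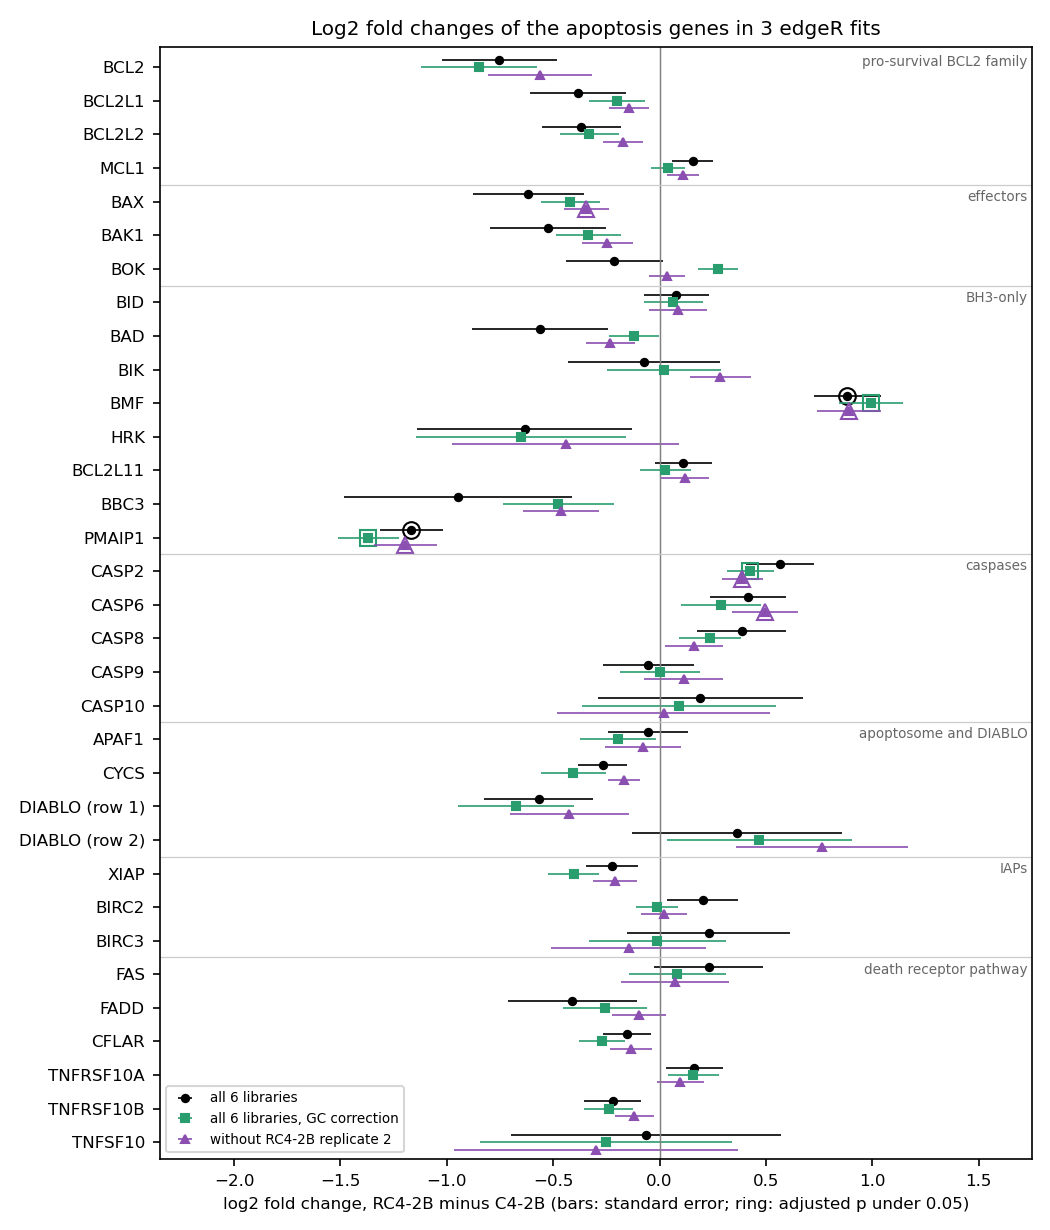
Log2 fold change (RC4-2B minus C4-2B, with standard error) of the 33 tested rows in edgeR fits with all 6 libraries (black), with the GC correction (green) and without RC4-2B replicate 2 (purple), where an outer ring marks an adjusted p under 0.05. PMAIP1 at -1.17 and BMF at 0.88 carry a ring in all 3 fits, while CASP2, CASP6 and BAX carry one in some, and BOK, BIK, BIRC2, BIRC3 and CASP9 lie on both sides of 0.

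The balance of the sides was also read per length, on the sums of deposited FPKM. The pro-survival members made up 41.3%, 42.6% and 41.3% of the BCL2-family FPKM in C4-2B against 42.3%, 56.6% and 45.4% in RC4-2B, that is 41.7% ± 0.725 against 48.1% ± 7.54 (SD, n = 3). The share of RC4-2B replicate 1 was below the highest of C4-2B, and without RC4-2B replicate 2 the RC4-2B mean was 43.8%, which is closer to that of C4-2B. Without MCL1 the share was 23.3% in both cell lines.

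Within this balance the ratio of MCL1 to PMAIP1, a pair chosen after the values were seen and described without a test, was 6.95, 6.94 and 6.98 in C4-2B against 17.8, 17.7 and 16.6 in RC4-2B in FPKM. It was 2.50 times as high in RC4-2B, and no library of RC4-2B stood apart. The ratio of BMF to PMAIP1 was 0.203, 0.231 and 0.228 against 1.05, 0.870 and 0.843, so that PMAIP1 stood above BMF per length in each C4-2B library and close to it in RC4-2B. MCL1 over BMF went the other way, from 34.2, 30.0 and 30.6 to 17.0, 20.4 and 19.7. The ratio of MCL1 to BCL2L11 overlapped between the cell lines, at 8.14 to 8.89 in C4-2B against 7.47 to 9.73 in RC4-2B. For BCL2L1 over BAX, RC4-2B replicate 1, at 1.01, lay with the C4-2B libraries (1.01 to 1.06), and RC4-2B replicates 2 and 3 were at 1.34 and 1.43.

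**Figure D4:**
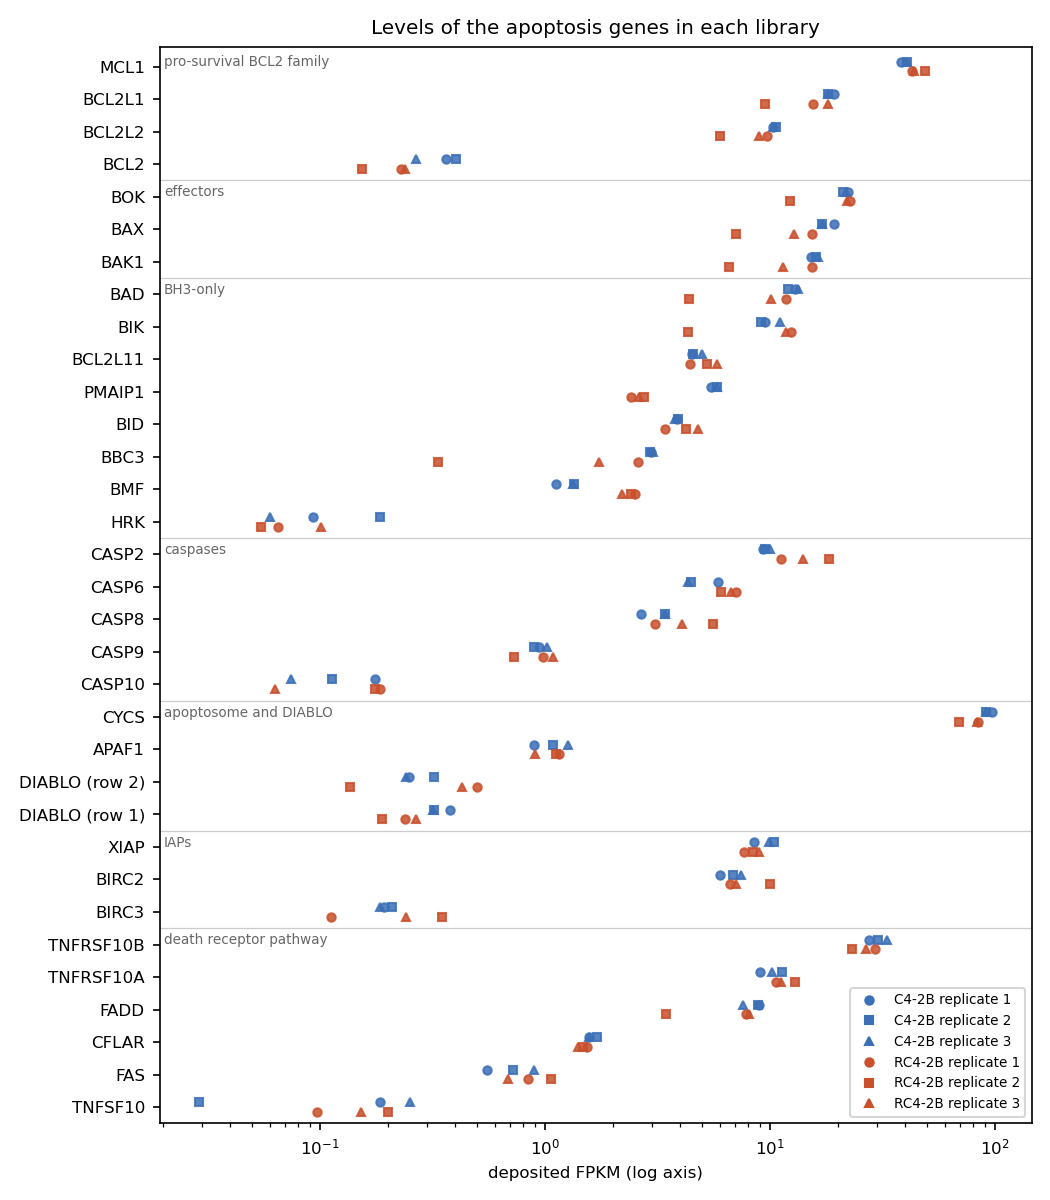
Deposited FPKM of the member genes in each library on a log axis, ordered by role and then by level, for rows above 0 in all libraries (symbols and colours as for the CPM plot of the members). CYCS, MCL1 and TNFRSF10B are the most abundant members, and BCL2, HRK, CASP10, BIRC3, TNFSF10 and both DIABLO rows lie below 1 FPKM throughout.

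The position of RC4-2B replicate 2 differed between both sides. Their GC content differed too, with a median of 49.7% for the pro-death rows and 44.4% for the pro-survival genes. The part of GC content in the difference between the sides was not tested. On the log2(CPM + 0.5) scale, and with the C4-2B mean of each gene set to 0, the pro-death rows had medians of -0.038, -0.45 and -0.047 in RC4-2B replicates 1, 2 and 3, whereas the pro-survival genes had medians of -0.18, -0.21 and -0.074. The deviation of RC4-2B replicate 2 from its partners followed the GC content of the member transcripts with a Spearman correlation of -0.79 over 33 rows, and of -0.67 over 14987 tested genes with a known GC content, a description over genes that share 1 library. Within the sides the correlation was -0.78 over 25 pro-death rows and -0.93 over 8 pro-survival genes. Of the 17 rows with at least 46.6% GC, 15 were lower in RC4-2B replicate 2 than in its partners, with a median of -0.88, while 6 of the 16 rows below that GC content were, with a median of 0.10. BMF (54.7% GC, deviation -0.024) and PMAIP1 (36.7% GC, deviation 0.080) hardly deviated in this library. Of the 10 rows with lower levels in RC4-2B and no overlap, 5 were in the group of higher GC content. The part of GC content in the results for BBC3, BAD, BAX, BAK1 and FADD was not tested beyond the corrected fits.

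**Figure D5:**
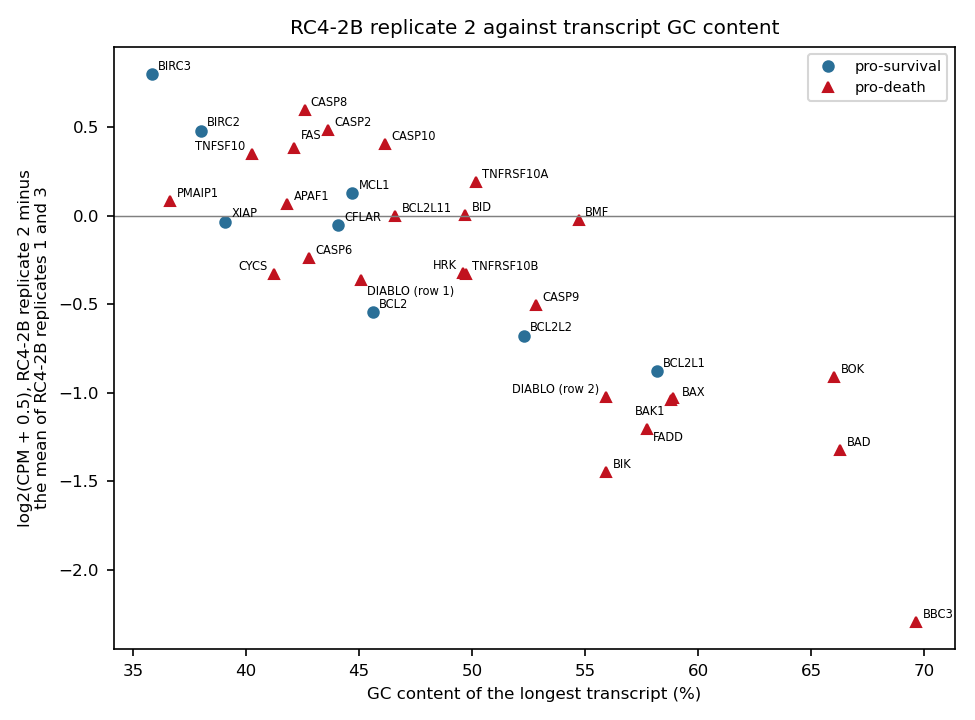
Difference between RC4-2B replicate 2 and the mean of RC4-2B replicates 1 and 3 in log2(CPM + 0.5), against the GC content of the longest annotated transcript of each tested row (blue circles, pro-survival; red triangles, pro-death). Rows of high GC content such as BBC3, BAD and BIK lie below 0, BIRC3 and CASP8 lie above it, and PMAIP1 and BMF lie close to 0.

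Outside the 33 members, a list of 52 other genes of apoptosis had 39 tested genes, and none passed in edgeR (0 in either direction). At an unadjusted p-value under 0.05 there were 10, against 21.4% of all tested genes. In DESeq2, which called 5.93% of all genes, 2 of the list were higher and 2 lower. PARP1, a substrate of caspases, had a log2FC of 0.15 (SE 0.087). PIDD1, the partner of CASP2 in the PIDDosome, was at 37.9, 36.9 and 35.9 CPM in C4-2B against 24.8, 7.18 and 21.6 CPM in RC4-2B. All RC4-2B libraries of PIDD1 were lower, with a log2FC of -1.05 (SE 0.37, edgeR adjusted p = 0.170). The log2FC was -0.67 without RC4-2B replicate 2 (edgeR adjusted p = 0.000876, 12.5% of all genes called). After the GC correction it was -0.65 (edgeR adjusted p = 0.0226, 7.65% called). CRADD, the adaptor of the same complex, had a log2FC of -0.30 (SE 0.13, edgeR adjusted p = 0.240).

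A list of 10 genes that act on the stability of MCL1 protein had 9 tested genes, and again none passed in edgeR (0 genes). At an unadjusted p-value under 0.05 there were 3, against 21.4% of all tested genes. In DESeq2, with 5.93% of all genes called, 2 of the list were higher. HUWE1, a ubiquitin ligase of MCL1, was at 315 CPM in C4-2B against 449 CPM in RC4-2B on average, a log2FC of 0.51 (SE 0.13, edgeR adjusted p = 0.0831). USP13, which removes ubiquitin from MCL1, was at 79.6 and 115 CPM, a log2FC of 0.53 (SE 0.13, edgeR adjusted p = 0.0808). Both passed without RC4-2B replicate 2 (adjusted p = 0.0068 for HUWE1 and 0.0069 for USP13 in edgeR), among 12.5% of all genes called. HUWE1 and USP13 act on MCL1 in opposite ways. FBXW7, the ligase component that targets MCL1 in mitotic arrest, had a log2FC of 0.12 (SE 0.15). A comparison of any single value over 3 libraries against 3 by an exact permutation test cannot give a two-sided p below 0.1, so none is given.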

How the data were processed

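RNAseq libraries of C4-2B and RC4-2B were compared, with 3 libraries per cell line grouped by the sample labels. Reads were mapped by the authors with STAR to GRCh38. The authors deposited raw counts, as whole reads on each gene, and FPKM values, in which counts are scaled to gene length and library total. Neither the counting program and its strand setting nor the release of the annotation is given in the sources used here.

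The deposited counts entered edgeR 4.0.16 under R 4.3.3 (TMM scaling, filterByExpr with a minimum of 10 counts, glmQLFit and glmQLFTest without robust estimation) over all 15054 tested genes, adjusted by Benjamini-Hochberg over all of them, at a threshold of 0.05. Each SE was obtained as the size of the log2FC over the square root of its F statistic. FPKM values served for levels between genes. The 33 members, their sides and all gene lists were chosen with earlier results of these data known. Values were given in full for members past the threshold, members without overlap and a log2FC of at least 0.5 in size, and the most abundant member of each role, and others were added after their values were seen.

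The alternatives were DESeq2 1.42.0 and edgeR with RLE or with upper-quartile factors. Further edgeR fits took all genes with at least 1 count summed over the 6 libraries, or genes averaging at least 10 counts. Others had replicate number blocked or 1 of the 6 libraries left out. On FPKM, limma 3.58.1 was run after log2(FPKM + 1) or log2(FPKM + 0.1), limited to genes that reach 1 FPKM in 3 or more libraries. It was also run after log2(FPKM + 1) without that limit. The GC correction smoothed the deviation of each library from the gene mean with lowess at a span of 0.2 along the GC content of its longest transcript in GENCODE release 44, known for 99.6% of tested genes, and also removes any mean GC trend between the cell lines. Its combination with leaving out RC4-2B replicate 2 was chosen after seeing the data. The fit was also tested on simulated counts. Some genes are not reported here.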

Additional observations from a re-analysis of the deposited data

How the results depend on the processing

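PMAIP1 stayed lower with an adjusted p under 0.05 in 13 of 17 alternatives and BMF stayed higher in 9 of 17, and in the others both kept their direction. BMF did not pass with the replicate block (adjusted p = 0.0744 in edgeR) or in the 3 limma fits on FPKM (0.0696, 0.0786 and 0.156). BOK, at -0.37 to 0.035 with a library left out, turned to 0.035 without RC4-2B replicate 2, 0.28 with the GC correction and 0.21 with both. The cause was not tested.

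Over all tested genes, higher and lower counts were 500 and 402 with DESeq2, 604 and 646 with no filter (29109 genes tested), 55 and 74 with the replicate block, 46 and 58 with limma on log2(FPKM + 1), 39 and 47 on log2(FPKM + 0.1), 13 and 23 without its filter, 655 and 491 with the GC correction, and 1040 and 1013 with the GC correction and RC4-2B replicate 2 left out. Leaving out 1 library gave 13 to 1000 higher and 31 to 925 lower, the highest without RC4-2B replicate 2.

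Members past the threshold, higher and lower, were 2 and 2 with no filter (CASP2 and BAX joined), 0 and 1 with the replicate block and with each limma fit, 2 and 1 with the GC correction, 2 and 2 with both, and 0 to 3 and 0 to 2 with a library left out. Of the other genes of apoptosis, higher and lower counts were 2 and 2 with DESeq2 and with no filter, 2 and 3 with the GC correction, 3 and 4 with both, and 0 to 3 and 0 to 3 with a library left out. For the genes acting on MCL1 stability, 2 were higher with DESeq2, no filter, the GC correction or both, and 0 to 2 with a library left out. The median of the pro-survival genes was -0.078 with limma on log2(FPKM + 1) without a filter. The pro-survival share of C4-2B and of RC4-2B was 53.2% and 58.0% on CPM and 23.3% and 23.3% without MCL1.

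The correlations of same-numbered deviations were 0.47, the highest of any pair, 0.27 and -0.11, and C4-2B replicate 3 correlated best with RC4-2B replicate 2. Deviations from a mean of 3 libraries depend on each other, so these values cannot decide whether the replicate numbers pair the libraries. With the replicate block, the count over all genes fell to 129, or 0.857%, and BMF was the only member that lost its call. Groups of 3 are too small for an outlier test.

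At this depth, BCL2A1 was under the floor of 3 counts, and changes of TNFSF10, HRK, CASP10 and DIABLO, with SE values of 0.25 to 0.64 on the log2 scale, are detectable only if large.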

Other observations

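Of the other genes of apoptosis, some more that did not pass with all libraries are described here. BNIP3 and BNIP3L, relatives of the BH3-only genes that act in the removal of mitochondria, were higher in each RC4-2B library than in each C4-2B library. BNIP3 was at 172, 171 and 167 CPM in C4-2B against 212, 214 and 209 CPM in RC4-2B (log2FC 0.32, SE 0.092, edgeR adjusted p = 0.118), and its adjusted p was 0.0344 with the GC correction and 0.0143 without RC4-2B replicate 2, both in edgeR. BNIP3L was at 83.8, 86.0 and 97.4 CPM against 127, 185 and 112 CPM (log2FC 0.67, SE 0.19, edgeR adjusted p = 0.107), with a log2FC of 0.43 without RC4-2B replicate 2 (edgeR adjusted p = 0.00803) and 0.44 with the GC correction (edgeR adjusted p = 0.0448). CASP4, an inflammatory caspase, was at 7.04, 7.30 and 4.55 CPM against 10.8, 9.52 and 11.9 CPM (log2FC 0.77, SE 0.22, edgeR adjusted p = 0.108), with an edgeR adjusted p of 0.00949 without RC4-2B replicate 2 and 0.145 with the GC correction. PDCD5, a gene named for programmed cell death, averaged 107 CPM in C4-2B against 74.0 CPM in RC4-2B (log2FC -0.53, SE 0.15, edgeR adjusted p = 0.102), with an edgeR adjusted p of 0.0119 without RC4-2B replicate 2 and 0.0368 with the GC correction. These 4 genes, and PIDD1, CRADD, HUWE1 and USP13 above, were chosen after their values were seen.

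Of the 10 prostate epithelial markers, 5 had a positive and 5 a negative log2FC, and none passed in edgeR. KLK2 was lower in each RC4-2B library than in each C4-2B library (log2FC -0.84, SE 0.26, edgeR adjusted p = 0.131). Its edgeR adjusted p was 0.000446 without RC4-2B replicate 2 (12.5% of all genes called) and 0.0406 with the GC correction (7.65% called). Markers of other cell types were mostly absent. Of the fibroblast markers 4 of 7 were at or under 3 counts in every library, with COL1A1 making up most of a sum of 24.5 to 27.9 CPM in C4-2B against 26.8 to 41.3 CPM in RC4-2B. COL3A1 was at 0.418, 0.736 and 0.569 CPM in C4-2B against 1.44, 1.94 and 2.23 CPM in RC4-2B, without overlap (log2FC 1.69, SE 0.35, edgeR adjusted p = 0.0512), and its edgeR adjusted p was 0.0181 with the GC correction and 0.0156 without RC4-2B replicate 2. COL1A1 overlapped (log2FC 0.30, edgeR adjusted p = 0.361), with an edgeR adjusted p of 0.0181 with the GC correction and 0.0326 without RC4-2B replicate 2. Of the endothelial markers 3 of 5 were at or under 3 counts. VWF was at 7.46 to 8.14 CPM in C4-2B against 3.64 to 5.07 CPM in RC4-2B (log2FC -0.84, SE 0.19, edgeR adjusted p = 0.0645). Its edgeR adjusted p was 0.0131 without RC4-2B replicate 2 and 0.0847 with the GC correction. Of the neuroendocrine markers 3 of 6 were at or under 3 counts, among them INSM1 at 0 counts, and their sums were 0.855 to 3.00 CPM over all libraries. Their part in the levels of the apoptosis genes was not tested.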
